A study of Mus musculus with 9 samples.

Results

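The 45 genes described here encode proteins that carry a cell through mitosis: the cyclins and kinases that start it, the kinetochore and spindle that attach and move chromosomes, the checkpoint that times their separation, the condensins that compact them and the machinery that divides the cytoplasm. They were taken as a list of gene symbols by known function, not by a threshold on their values, and all 45 were found among 23936 genes with a symbol. All 45 were among the 10185 genes tested, which had at least 1 FPKM (a fragment number divided by the length of the transcript and by the size of the library) in at least 3 of 9 libraries. They passed this filter through the primed cells: all 45 had at least 1 FPKM in all 6 primed libraries, while 19 did so in all 3 naive libraries. The libraries were made from mouse OT-I CD8 T cells, which carry a transgenic receptor for an ovalbumin peptide shown on MHC class I, in 3 groups of 3. MLN-primed cells were taken from the MLN (the gut-draining mesenteric lymph nodes), and their sample titles carry the word "oral". Spleen-primed cells came from the spleen, with "iv" in their titles, and naive cells also came from the spleen. The organ and the title word thus always go together, and what each contributed cannot be told apart. The sources used here give neither the time after priming, nor the gate, nor the animals behind the replicates. The p-values therefore rest on library-to-library spread that may be technical in part.

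Naive T cells rest outside the cell cycle, and a T cell that meets its antigen divides many times in the following days. Genes of the G2 and M phases are silenced in resting cells and switched on late in each cycle, largely by complexes of MuvB proteins with MYBL2 and FOXM1, which reach promoters at a short element called the cell cycle genes homology region (CHR), often with CCAAT boxes bound by NF-Y nearby. Cyclin B with CDK1 then drives entry into mitosis, and the anaphase-promoting complex (APC/C) with CDC20 ends it by marking cyclin B and securin for destruction.

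Promoters of members are shown to describe their sequence, and their relation to the changes given below was not tested. RefSeq sequence of the GRCm38.p6 assembly, the assembly also called mm10, from 250 bases before to 50 bases after the first listed start, was matched for 37 of the 45 genes. A CHR was searched as TTTGAA or TTCGAA and a CCAAT box as CCAAT, each on both strands (TTCAAA and ATTGG on the other strand, while TTCGAA reads the same on both). A CHR was present in 29 of the 37 promoters (78.4%), against 14.1% of the 8210 promoters of other genes tested and 19.4% of all 27025 promoters of this length. A CCAAT box was present in 28 (75.7%), against 40.3% and 37.9%, and both motifs in 26 (70.3%), against 6.13% and 7.70%. Of the 40 CHR matches in members, 27 (67.5%) lay within 50 bases of the start, against 24.7% over all promoters, and 1 match, in Cdca8, overlapped a CCAAT box. The promoters of 6 members are given 5′ to 3′ on the strand of the gene, with CHR and CCAAT box matches on either strand in capitals: those of the mitotic kinase genes Cdk1 (chr10:69352863-69353162, minus strand) and Plk1 (chr7:122159185-122159484, plus strand), of Cdc20 (chr4:118437294-118437593, minus strand), of the checkpoint kinase gene Bub1 (chr2:127831810-127832109, minus strand), of Mki67 (chr7:135716330-135716629, minus strand) and of Racgap1 (chr15:99651607-99651906, minus strand), a member with a high naive level. Such a match is a description of the sequence and was not tested as a binding site.
Cdk1: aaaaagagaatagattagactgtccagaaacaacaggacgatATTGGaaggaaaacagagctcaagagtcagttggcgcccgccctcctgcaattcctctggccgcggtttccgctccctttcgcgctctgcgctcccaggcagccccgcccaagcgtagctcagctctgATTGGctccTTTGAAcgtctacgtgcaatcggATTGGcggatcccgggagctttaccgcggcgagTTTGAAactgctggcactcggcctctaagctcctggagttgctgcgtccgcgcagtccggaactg
Cdc20: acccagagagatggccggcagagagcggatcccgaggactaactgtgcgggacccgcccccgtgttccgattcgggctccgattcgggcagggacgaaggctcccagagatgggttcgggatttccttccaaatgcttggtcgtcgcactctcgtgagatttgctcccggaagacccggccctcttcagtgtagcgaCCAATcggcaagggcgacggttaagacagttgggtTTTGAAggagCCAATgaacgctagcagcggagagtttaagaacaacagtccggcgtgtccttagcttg
Plk1: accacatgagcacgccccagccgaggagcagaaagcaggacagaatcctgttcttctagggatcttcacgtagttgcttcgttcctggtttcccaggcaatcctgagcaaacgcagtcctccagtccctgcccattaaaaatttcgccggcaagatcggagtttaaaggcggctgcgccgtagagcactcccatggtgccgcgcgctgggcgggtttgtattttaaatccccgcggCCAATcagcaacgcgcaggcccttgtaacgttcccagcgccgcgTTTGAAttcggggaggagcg
Bub1: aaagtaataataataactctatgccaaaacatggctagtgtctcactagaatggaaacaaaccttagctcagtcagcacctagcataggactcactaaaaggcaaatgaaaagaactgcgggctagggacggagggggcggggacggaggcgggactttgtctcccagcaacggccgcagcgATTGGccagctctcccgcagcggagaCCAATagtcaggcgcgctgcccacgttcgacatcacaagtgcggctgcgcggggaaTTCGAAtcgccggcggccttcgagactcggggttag
Mki67: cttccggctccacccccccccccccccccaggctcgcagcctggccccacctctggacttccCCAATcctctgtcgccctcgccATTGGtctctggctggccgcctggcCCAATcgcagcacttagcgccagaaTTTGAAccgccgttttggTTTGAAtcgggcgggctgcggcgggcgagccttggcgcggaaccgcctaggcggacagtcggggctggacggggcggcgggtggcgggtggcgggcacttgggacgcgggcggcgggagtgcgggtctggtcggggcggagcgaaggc
Racgap1: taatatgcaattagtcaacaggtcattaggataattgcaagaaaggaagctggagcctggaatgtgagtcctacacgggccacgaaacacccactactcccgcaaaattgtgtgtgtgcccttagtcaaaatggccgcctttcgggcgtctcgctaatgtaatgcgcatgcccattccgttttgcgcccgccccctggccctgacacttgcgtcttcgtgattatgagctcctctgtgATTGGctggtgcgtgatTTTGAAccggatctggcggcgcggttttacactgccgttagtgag
The promoters of Cdc20, Plk1, Bub1 and Racgap1 held 1 CHR each and those of Cdk1 and Mki67 held 2. In Plk1, Bub1 and Racgap1 it began 31, 15 and 6 bases after the start, and in Cdc20 18 bases before it. In Birc5, Mad2l1, Ncaph, Nuf2, Nusap1 and Pttg1 neither motif was found in this window. Racgap1 and Bub1, both with a CHR near the start, had very different naive levels, given below. The relation of the motifs to levels was not tested. No promoter was matched for Smc4, the member that did not rise in primed cells.

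The FPKM of a library summed to 613322 to 720410, with 9469 to 9667 genes at 1 FPKM or more; read depth is unknown, since it cannot be read from FPKM. The CD8 T cell markers found in the table, 7 of 8, summed to 1658 to 1746 FPKM in MLN-primed, 2482 to 2577 FPKM in spleen-primed and 3378 to 3731 FPKM in naive libraries. Among markers of other cells, the B cell genes summed to 11.9 to 15.8, 7.79 to 9.21 and 11.2 to 15.0 FPKM in those groups. Most of this came from Cd79b, with Ms4a1 and Pax5 at or near 0. Cd22 was higher in primed libraries, at 0.671 to 1.31 FPKM in MLN-primed, 0.680 to 1.33 in spleen-primed and 0.000641 to 0.130 in naive ones. Red cell precursor genes summed to 0.424 to 70.5, 3.45 to 39.7 and 10.9 to 52.9 FPKM, nearly all haemoglobin, with Klf1 near 0, and myeloid genes to 7.71 to 8.91, 16.2 to 18.5 and 3.86 to 13.3 FPKM. In primed libraries the myeloid sum was mostly Cd68, at 7.21 to 8.24 FPKM in MLN-primed and 13.6 to 17.4 FPKM in spleen-primed ones. Lyz2 ran the other way, at 0.125 to 0.219, 0.389 to 1.70 and 2.12 to 9.75 FPKM in MLN-primed, spleen-primed and naive libraries. Csf1r, Emr1 and Fcgr3 also reached their highest values in naive libraries, and Mpo and Elane were at or near 0. The part of these differences in the results was not tested. MLN-primed 1, spleen-primed 1 and spleen-primed 2 stood apart from the other primed libraries in long transcripts, which bears most on Mki67, Cenpe, Cenpf and Foxm1. These 3 libraries lay below the other 3 primed libraries in 18 of the 45 genes (40%), against 18.9% of all genes tested. Naive 2 also leaned away from long transcripts. Per doubling of transcript length, log2(FPKM + 1) relative to the group mean changed by -0.0486 in naive 2. It changed by -0.0888 in MLN-primed 1, -0.0507 in spleen-primed 1 and -0.0272 in spleen-primed 2, and by 0.0264 and 0.0221 in naive 1 and 3.

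The first comparison asks how priming in either organ changed the mitotic genes of naive cells. In both primed groups 44 of the 45 genes were higher than in naive cells and 0 were lower (limma on log2(FPKM + 1), Benjamini-Hochberg adjusted p under 0.05), except under the scalings named for Pttg1 and Smc4 below. Over all genes tested, 45.5% were higher and 33.2% lower in MLN-primed cells, and 43.1% were higher and 32.7% lower in spleen-primed cells. The split over all genes moved with the scaling: in spleen-primed cells 4387 genes were higher and 3331 lower as deposited, and 3545 and 4070 under quantile normalization. The median log2 change of the 45 genes was 4.87 in MLN-primed and 4.76 in spleen-primed cells, beside 0.15 and 0.10 over all genes tested. For these 44 genes every primed library lay above every naive library, which held for 45.8% of all genes in MLN-primed and 44.5% in spleen-primed cells. The exception was the condensin gene Smc4. No member had an unadjusted p under 0.05 in the lower direction (0 in both groups). Together the 45 genes made up 0.561% to 0.678% of the FPKM in MLN-primed, 0.580% to 0.679% in spleen-primed and 0.0364% to 0.0465% in naive libraries. These 2 comparisons share the 3 naive libraries. In bulk RNA, more dividing cells and more RNA per dividing cell cannot be told apart. Log2 changes were computed from FPKM + 1, so that those of genes below 1 FPKM in naive cells are understated, and ± gives the standard error of the model (n = 3 per group).

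**Figure D1:**
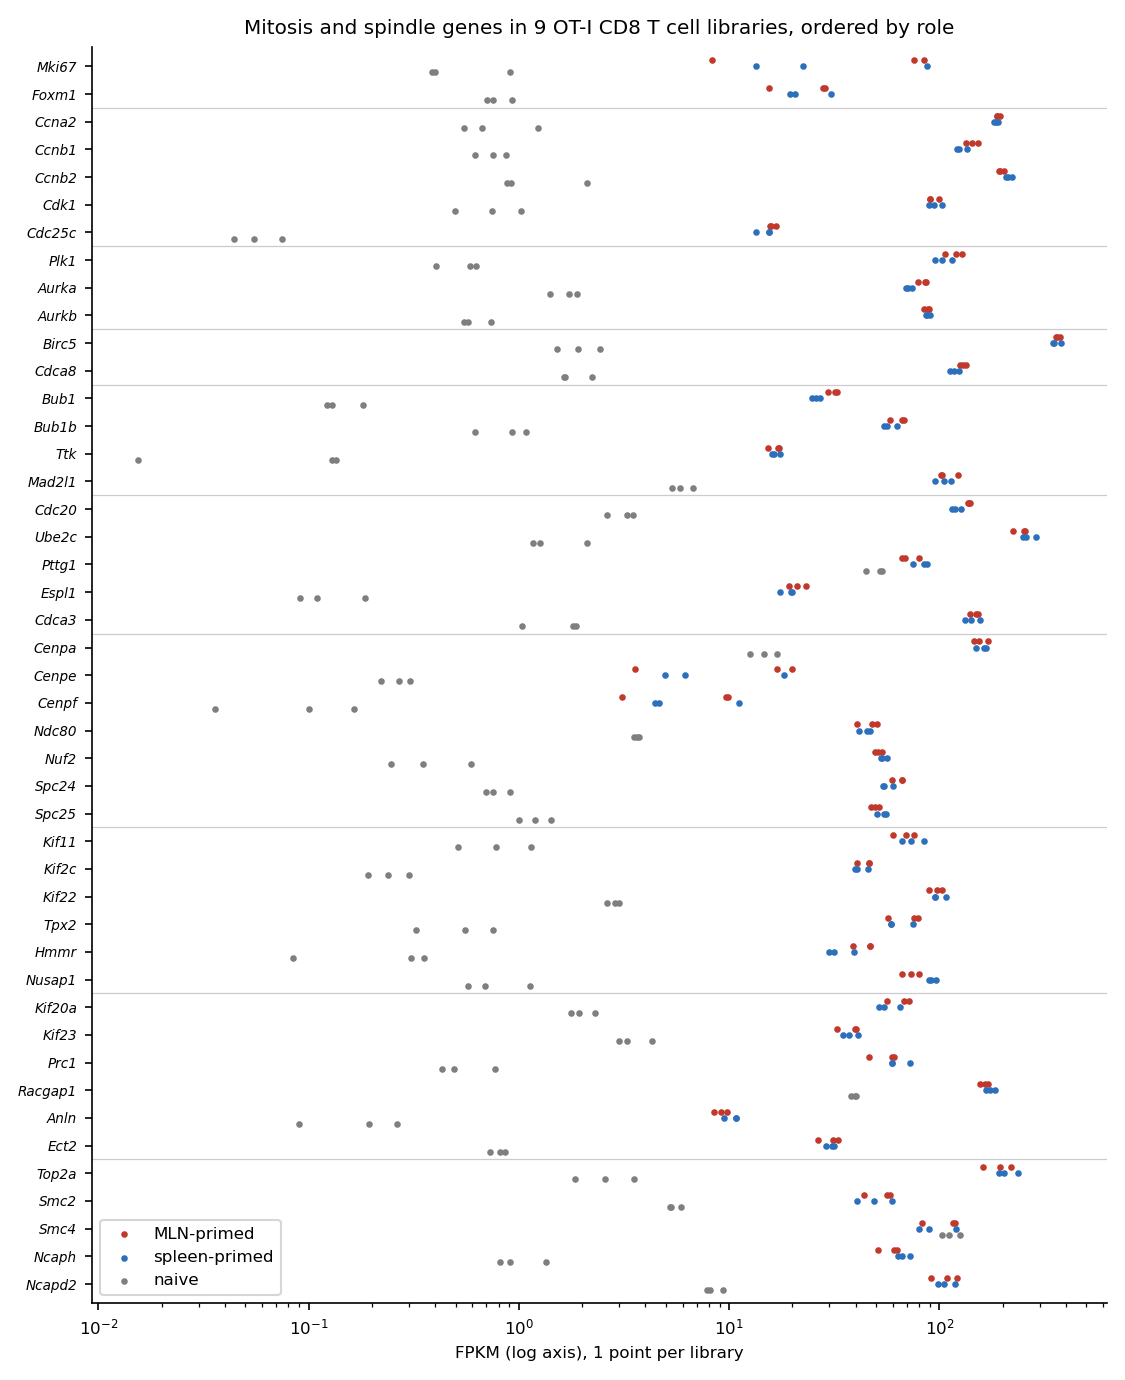
FPKM of the 45 mitosis and spindle genes on a log axis, 1 point per library, in rows ordered by role with grey lines between roles. For 44 genes the 3 MLN-primed and 3 spleen-primed libraries lie to the right of the 3 naive ones; in Smc4 (79.96 to 125.1 FPKM) the groups overlap, and in Mki67, Cenpe and Cenpf the primed libraries spread widely.

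All 5 genes of the cyclin and CDK1 group rose in both primed groups, with the highest median log2 change of any role (6.37 in MLN-primed and 6.19 in spleen-primed cells). Ccnb1, the B-type cyclin that activates CDK1, had 153, 144 and 134 FPKM in MLN-primed libraries 1 to 3, 124, 135 and 121 FPKM in spleen-primed and 0.751, 0.621 and 0.864 FPKM in naive ones. Its log2 change was 6.37 ± 0.08 (adjusted p = 1.75e-11) in MLN-primed and 6.19 ± 0.08 (adjusted p = 1.91e-11) in spleen-primed cells. Cdk1, the kinase itself, had 99.6, 90.0 and 89.8 FPKM in MLN-primed libraries 1 to 3, 102, 94.7 and 89.7 FPKM in spleen-primed and 0.746, 0.497 and 1.02 FPKM in naive ones, and its log2 change was 5.75 ± 0.11 (adjusted p = 6.4e-11) in MLN-primed and 5.79 ± 0.11 (adjusted p = 7.06e-11) in spleen-primed cells. The primed libraries of both genes lay close together and far above every naive one. Ccna2, the A-type cyclin of S and G2 phase, changed by 6.73 ± 0.12 (adjusted p = 4.09e-11) in MLN-primed and 6.70 ± 0.12 (adjusted p = 5.06e-11) in spleen-primed cells, and Ccnb2, another B-type cyclin, by 6.46 ± 0.16 (adjusted p = 3.44e-10) in MLN-primed and 6.58 ± 0.16 (adjusted p = 3.32e-10) in spleen-primed cells. Cdc25c, a phosphatase that activates CDK1, had 15.6, 16.6 and 15.8 FPKM in MLN-primed libraries 1 to 3, 13.4, 15.5 and 15.4 FPKM in spleen-primed and 0.0550, 0.0442 and 0.0745 FPKM in naive ones, the lowest mean of the 45 genes in naive cells.

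All 3 mitotic kinase genes and both chromosomal passenger partners rose in both primed groups. Plk1, whose kinase acts from mitotic entry to cytokinesis, had 106, 128 and 120.3 FPKM in MLN-primed libraries 1 to 3, 95.5, 103 and 114 FPKM in spleen-primed and 0.624, 0.405 and 0.586 FPKM in naive ones. Aurkb, the kinase of the chromosomal passenger complex that corrects wrong attachments, had 84.8, 88.8 and 88.1 FPKM in MLN-primed libraries 1 to 3, 86.5, 90.0 and 87.6 FPKM in spleen-primed and 0.573, 0.548 and 0.739 FPKM in naive ones. In both genes all 3 naive libraries were below 1 FPKM and all primed ones at 84.8 FPKM or above. The log2 change of Plk1 was 6.27 ± 0.10 (adjusted p = 3.6e-11) in MLN-primed and 6.09 ± 0.10 (adjusted p = 3.98e-11) in spleen-primed cells, and that of Aurkb 5.77 ± 0.07 (adjusted p = 1.75e-11) in MLN-primed and 5.78 ± 0.07 (adjusted p = 1.23e-11) in spleen-primed cells. Birc5, which encodes survivin, the subunit that places the passenger complex on centromeres, was the most abundant member in both primed groups. It had 374, 358 and 362 FPKM in MLN-primed libraries 1 to 3, 378, 351 and 349 FPKM in spleen-primed and 1.92, 1.52 and 2.44 FPKM in naive ones. Its log2 change, the largest of the 45 on the scale of FPKM + 1, was 6.96 ± 0.10 (adjusted p = 3.28e-11) in MLN-primed and 6.94 ± 0.10 (adjusted p = 3.32e-11) in spleen-primed cells. By the ratio of mean FPKM to naive cells it was not the largest, at 186.2 and 183.5 against 276.7 and 255.5 for Cdc25c. Aurka, the spindle pole kinase, and Cdca8, which encodes the passenger subunit borealin, had 79.3 to 86.4 and 125.5 to 134.5 FPKM in MLN-primed, 69.4 to 73.7 and 112 to 124 FPKM in spleen-primed, and 1.40 to 1.89 and 1.64 to 2.23 FPKM in naive libraries.

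The spindle checkpoint holds anaphase back until every kinetochore is attached, and all 4 of its members rose in both primed groups. Bub1, a kinetochore kinase of the checkpoint, had 31.7, 32.5 and 29.6 FPKM in MLN-primed libraries 1 to 3, 26.9, 26.0 and 24.7 FPKM in spleen-primed and 0.130, 0.123 and 0.181 FPKM in naive ones. Its naive libraries held almost no transcript, and its log2 change was 4.82 ± 0.08 (adjusted p = 3.6e-11) in MLN-primed and 4.55 ± 0.08 (adjusted p = 4.4e-11) in spleen-primed cells. Bub1b, which encodes the checkpoint protein BUBR1, had 54.5 to 68.2 FPKM over the primed libraries and 0.619 to 1.077 FPKM in naive ones. Ttk, a checkpoint kinase, had 15.3 to 17.4 FPKM over the primed libraries and 0.0154 to 0.135 FPKM in naive ones. Mad2l1, which encodes the checkpoint protein MAD2, had 122, 103 and 102 FPKM in MLN-primed libraries 1 to 3, 114, 105 and 95.2 FPKM in spleen-primed and 5.35, 5.83 and 6.73 FPKM in naive ones. It was the one checkpoint member above 5 FPKM in every naive library.

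The APC/C and anaphase genes, with Cdca3 placed beside them, rose in both primed groups, 5 of 5. Cdc20, the activator of the APC/C, had 137, 139.5 and 138 FPKM in MLN-primed libraries 1 to 3, 114, 119 and 127 FPKM in spleen-primed and 3.26, 2.62 and 3.49 FPKM in naive ones. Cdc20 changed by 5.08 ± 0.09 (adjusted p = 3.6e-11) in MLN-primed and 4.88 ± 0.09 (adjusted p = 4.74e-11) in spleen-primed cells on this log2 scale. Ube2c, the ubiquitin-conjugating enzyme that works with the APC/C, changed by 6.62 ± 0.13 (adjusted p = 7.84e-11) in MLN-primed and 6.75 ± 0.13 (adjusted p = 7.85e-11) in spleen-primed cells. Pttg1, which encodes securin, the inhibitor that the APC/C removes to release separase, changed least among the members that passed. It had 80.0, 66.7 and 68.7 FPKM in MLN-primed libraries 1 to 3, 87.3, 84.5 and 74.5 FPKM in spleen-primed and 44.97, 53.3 and 52.5 FPKM in naive ones. Its naive level was thus already high, its primed libraries still lay above all naive ones, and its log2 change was 0.51 ± 0.10 (adjusted p = 0.000835) in MLN-primed and 0.70 ± 0.10 (adjusted p = 9.99e-05) in spleen-primed cells. Under quantile normalization the MLN-primed change of Pttg1 was -0.0037 (adjusted p = 0.972), so its direction there depends on the scaling. Espl1, which encodes separase itself, had 17.4 to 23.2 FPKM over the primed libraries and 0.0914 to 0.186 FPKM in naive ones, a pattern unlike that of its inhibitor. Cdca3, a protein that promotes mitotic entry, had 133 to 155 FPKM over the primed libraries and 1.04 to 1.86 FPKM in naive ones.

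All 7 centromere and kinetochore genes rose in both primed groups. Cenpa, the histone H3 variant that marks centromeres, had 171, 145 and 155 FPKM in MLN-primed libraries 1 to 3, 163, 166 and 149 FPKM in spleen-primed and 12.5, 14.6 and 16.9 FPKM in naive ones. It was the fourth most abundant member in naive cells, and its log2 change was 3.34 ± 0.11 (adjusted p = 1.73e-09) in MLN-primed and 3.36 ± 0.11 (adjusted p = 1.81e-09) in spleen-primed cells. Ndc80, the microtubule-binding subunit of the outer kinetochore, had 40.6, 47.7 and 50.4 FPKM in MLN-primed libraries 1 to 3, 45.4, 41.2 and 46.7 FPKM in spleen-primed and 3.63, 3.74 and 3.54 FPKM in naive ones. Its naive libraries lay within a narrow range above 3 FPKM, and its log2 change was 3.34 ± 0.09 (adjusted p = 5.26e-10) in MLN-primed and 3.29 ± 0.09 (adjusted p = 7.01e-10) in spleen-primed cells. The NDC80 complex has 3 further subunits. Over the primed libraries the 4 subunits were at 40.6 to 50.4 FPKM for Ndc80, 49.6 to 56.5 FPKM for Nuf2, 53.7 to 66.4 FPKM for Spc24 and 47.4 to 55.6 FPKM for Spc25. In naive libraries the other subunits were lower than Ndc80, at 0.246 to 0.593 FPKM for Nuf2, 0.699 to 0.910 FPKM for Spc24 and 1.01 to 1.41 FPKM for Spc25.

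Cenpe, the kinesin that carries chromosomes to the spindle equator, and Cenpf, a large kinetochore protein, behaved differently between replicate libraries. Cenpe had 3.58, 16.9 and 19.9 FPKM in MLN-primed libraries 1 to 3, 4.94, 6.19 and 18.3 FPKM in spleen-primed and 0.270, 0.222 and 0.303 FPKM in naive ones. Cenpf had 3.08, 9.68 and 9.88 FPKM in MLN-primed libraries 1 to 3, 4.44, 4.63 and 11.1 FPKM in spleen-primed and 0.1001, 0.0361 and 0.165 FPKM in naive ones. In both genes MLN-primed 1, spleen-primed 1 and spleen-primed 2 were low, MLN-primed 2, MLN-primed 3 and spleen-primed 3 were high, and all 6 lay above the naive libraries. The log2 change was 3.24 ± 0.57 (adjusted p = 0.000407) in MLN-primed and 2.89 ± 0.57 (adjusted p = 0.000988) in spleen-primed cells for Cenpe, and 2.83 ± 0.39 (adjusted p = 8.06e-05) in MLN-primed and 2.71 ± 0.39 (adjusted p = 0.000127) in spleen-primed cells for Cenpf.

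The proliferation marker Mki67 and the transcription factor gene Foxm1 had the same split between libraries. Mki67, whose protein Ki-67 coats mitotic chromosomes, had 8.32, 76.0 and 84.1 FPKM in MLN-primed libraries 1 to 3, 13.4, 22.4 and 87.1 FPKM in spleen-primed and 0.388, 0.399 and 0.903 FPKM in naive ones. Foxm1, an activator of G2 and M genes, had 15.4, 27.9 and 28.4 FPKM in MLN-primed libraries 1 to 3, 19.4, 20.6 and 30.5 FPKM in spleen-primed and 0.749, 0.704 and 0.931 FPKM in naive ones. Both rose in both primed groups, and the 3 low libraries were the same as for Cenpe and Cenpf. The log2 change was 4.67 ± 0.85 (adjusted p = 0.000522) in MLN-primed and 4.33 ± 0.85 (adjusted p = 0.000973) in spleen-primed cells for Mki67, and 3.75 ± 0.23 (adjusted p = 1.78e-07) in MLN-primed and 3.75 ± 0.23 (adjusted p = 2.26e-07) in spleen-primed cells for Foxm1.

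**Figure D2:**
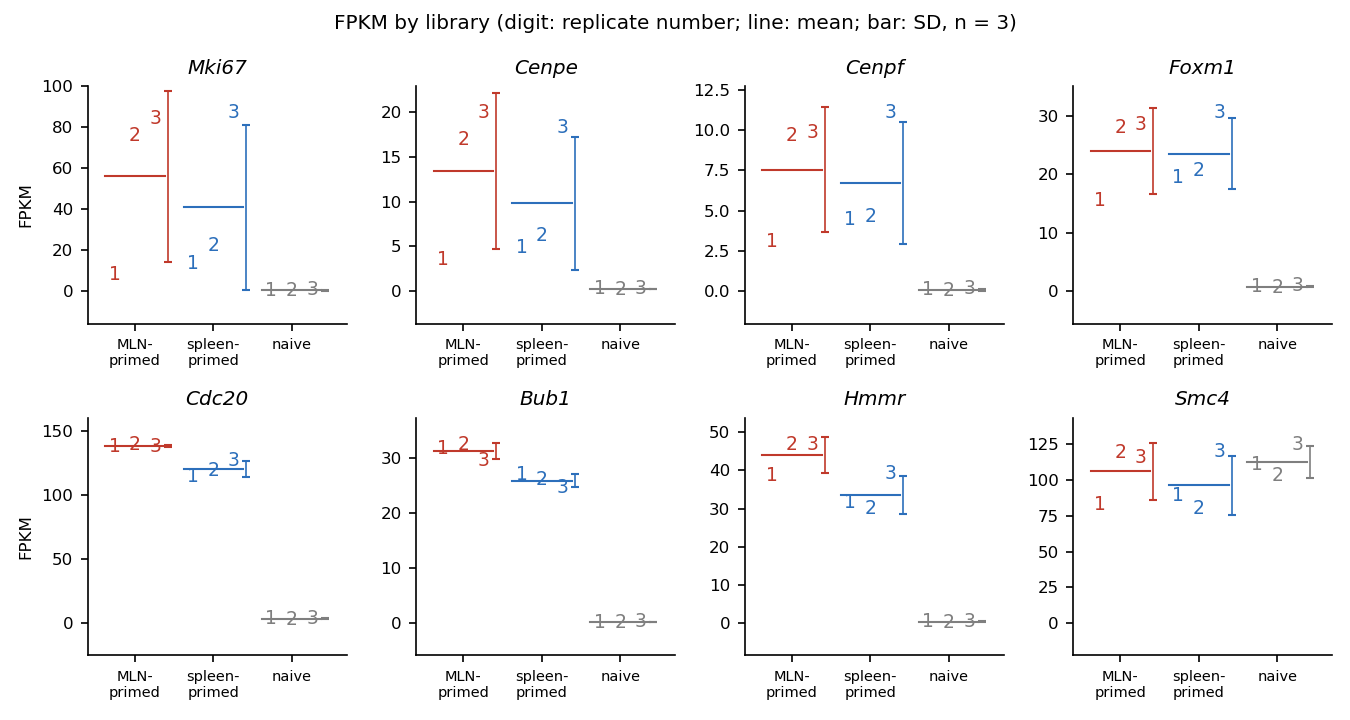
FPKM by library for 8 members in MLN-primed, spleen-primed and naive cells; each digit is a library with its replicate number, horizontal lines are means and bars are SD (n = 3). Mki67 was at 8.32, 76.0 and 84.1 FPKM in MLN-primed libraries, and Smc4 was at 103 to 125 FPKM in naive ones.

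All 6 spindle kinesins and microtubule-associated proteins rose in both primed groups. Kif11, the kinesin that pushes spindle poles apart, had 60.1, 76.0 and 69.3 FPKM in MLN-primed libraries 1 to 3, 73.3, 66.6 and 84.1 FPKM in spleen-primed and 0.775, 0.511 and 1.14 FPKM in naive ones. The log2 change of Kif11 was 5.27 ± 0.14 (adjusted p = 4.83e-10) in MLN-primed and 5.39 ± 0.14 (adjusted p = 4.8e-10) in spleen-primed cells. Tpx2, which activates Aurora A on the spindle, had 57.1, 79.1 and 75.9 FPKM in MLN-primed libraries 1 to 3, 59.0, 58.6 and 74.8 FPKM in spleen-primed and 0.554, 0.325 and 0.755 FPKM in naive ones. Tpx2 changed by 5.53 ± 0.15 (adjusted p = 6.35e-10) in MLN-primed and 5.40 ± 0.15 (adjusted p = 8.28e-10) in spleen-primed cells on this log2 scale. All 3 MLN-primed and all 3 spleen-primed libraries of both genes lay at 57.1 FPKM or above, while naive ones were at 1.14 FPKM or below. In Tpx2 MLN-primed 1, spleen-primed 1 and spleen-primed 2 were the lowest primed libraries. Kif2c, a kinesin that depolymerises microtubules, and Kif22, a kinesin on chromosome arms, had 39.6 to 46.4 and 88.9 to 107 FPKM over the primed libraries, against 0.192 to 0.299 and 2.63 to 3.002 FPKM in naive ones. Hmmr, whose protein binds spindle microtubules and hyaluronan, had 38.7, 46.9 and 46.7 FPKM in MLN-primed libraries 1 to 3, 31.7, 29.9 and 39.1 FPKM in spleen-primed and 0.354, 0.0841 and 0.308 FPKM in naive ones, and its log2 change was 5.18 ± 0.13 (adjusted p = 3.41e-10) in MLN-primed and 4.79 ± 0.13 (adjusted p = 6.57e-10) in spleen-primed cells. Nusap1, a protein that bundles spindle microtubules, had 66.4 to 96.7 FPKM over the primed libraries and 0.573 to 1.13 FPKM in naive ones.

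The 6 central spindle and cytokinesis genes all rose in both primed groups and had different naive levels. Racgap1, a subunit of centralspindlin, the complex that bundles the central spindle, had 155, 169 and 165 FPKM in MLN-primed libraries 1 to 3, 167, 175 and 184 FPKM in spleen-primed and 39.5, 38.1 and 40.1 FPKM in naive ones. It was the third most abundant member in naive cells, at 39.2 ± 1.07 FPKM (SD, n = 3), and its log2 change was 2.03 ± 0.06 (adjusted p = 1.47e-09) in MLN-primed and 2.13 ± 0.06 (adjusted p = 1.15e-09) in spleen-primed cells. Its partner in centralspindlin, the kinesin Kif23, had 32.7 to 41.1 FPKM over the primed libraries and 2.98 to 4.29 FPKM in naive ones. Its log2 change was 3.10 ± 0.12 (adjusted p = 7.6e-09) in MLN-primed and 3.11 ± 0.12 (adjusted p = 9.38e-09) in spleen-primed cells. In naive cells the partners were thus at unequal levels per length, with no overlap of their values. Ect2, the exchange factor that activates RHOA at the division site, had 32.9, 31.3 and 26.5 FPKM in MLN-primed libraries 1 to 3, 31.4, 31.0 and 28.9 FPKM in spleen-primed and 0.815, 0.725 and 0.855 FPKM in naive ones. The log2 change of Ect2 was 4.11 ± 0.09 (adjusted p = 1.58e-10) in MLN-primed and 4.13 ± 0.09 (adjusted p = 1.73e-10) in spleen-primed cells. Anln, which encodes anillin, a scaffold of the contractile ring, had 8.50, 9.79 and 9.18 FPKM in MLN-primed libraries 1 to 3, 10.7, 9.46 and 10.7 FPKM in spleen-primed and 0.262, 0.0901 and 0.195 FPKM in naive ones. Anln changed by 3.10 ± 0.09 (adjusted p = 1.32e-09) in MLN-primed and 3.26 ± 0.09 (adjusted p = 1.04e-09) in spleen-primed cells on this log2 scale. Anln was among the 3 lowest members in primed cells. Prc1, which crosslinks central spindle microtubules, and Kif20a, a kinesin of the same structure, had 46.2 to 72.7 and 51.4 to 71.3 FPKM over the primed libraries, against 0.431 to 0.774 and 1.77 to 2.29 FPKM in naive ones.

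Of 5 chromosome structure genes, 4 rose in both primed groups. Top2a, the topoisomerase that disentangles sister chromatids, had 161, 219 and 194 FPKM in MLN-primed libraries 1 to 3, 202, 193 and 235 FPKM in spleen-primed and 2.58, 1.85 and 3.51 FPKM in naive ones. The log2 change of Top2a was 5.73 ± 0.17 (adjusted p = 9.27e-10) in MLN-primed and 5.88 ± 0.17 (adjusted p = 8.54e-10) in spleen-primed cells. Smc2, a core ATPase subunit of both condensins, had 43.6, 58.1 and 56.6 FPKM in MLN-primed libraries 1 to 3, 48.6, 40.6 and 59.6 FPKM in spleen-primed and 5.29, 5.25 and 5.93 FPKM in naive ones. Smc2 changed by 3.04 ± 0.15 (adjusted p = 2.88e-08) in MLN-primed and 2.95 ± 0.15 (adjusted p = 4.59e-08) in spleen-primed cells on this log2 scale. Smc4, the partner of SMC2 in both condensins, was the most abundant member in naive cells, and had 83.1, 119 and 116 FPKM in MLN-primed libraries 1 to 3, 89.6, 80.0 and 119.8 FPKM in spleen-primed and 111, 103 and 125 FPKM in naive ones. Its groups overlapped, and its log2 change was -0.10 ± 0.17 (adjusted p = 0.59) in MLN-primed and -0.24 ± 0.17 (adjusted p = 0.216) in spleen-primed cells; the 95% intervals were -0.48 to 0.28 and -0.62 to 0.14. Smc4 was also lower in MLN-primed 1, spleen-primed 1 and spleen-primed 2 than in the other primed libraries. Without spleen-primed 3, which leaves only the low pair in its group, Smc4 was lower in spleen-primed than in naive cells (-0.41, adjusted p = 0.0352). Without the 3 low libraries its change was 0.06 in MLN-primed cells and 0.09 in spleen-primed ones, and neither passed. It was lower in spleen-primed cells under median-of-ratios scaling (-0.36, adjusted p = 0.0471) and under quantile normalization (-0.81, adjusted p = 0.0014). Under quantile normalization it was also lower in MLN-primed cells (-0.73, adjusted p = 0.0025). The condensin I subunit genes Ncaph and Ncapd2 had 50.9 to 72.2 and 91.4 to 121 FPKM over the primed libraries, against 0.809 to 1.35 and 7.85 to 9.34 FPKM in naive ones. Partners of one complex therefore differed in naive level: mean FPKM were 113 for Smc4, 5.49 for Smc2, 8.43 for Ncapd2 and 1.02 for Ncaph.

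The second comparison asks whether the organ of priming, with the title word that goes with it, set the level of the mitotic genes. Of the 45 genes, 2 were higher in MLN-primed cells than in spleen-primed ones and 0 were lower, while 17.3% of all genes tested were higher and 13.1% lower (limma, adjusted p under 0.05). The 2 genes were Bub1 and Hmmr. The median log2 difference of the 45 genes was 0.03, beside 0.03 over all genes, with 25 differences above 0 and 20 below. At an unadjusted p under 0.05 there were 6 genes, of which 1, Nusap1, was lower. All 3 MLN-primed libraries lay above all 3 spleen-primed ones in 5 genes (Cdc25c, Aurka, Cdca8, Bub1 and Cdc20), against 25.1% of all genes, and below them in 3 (Ccnb2, Nusap1 and Ncaph), against 21% of all genes. For 35 of the 43 genes that did not pass, the 95% interval of the difference lay within 0.5 log2 units of 0 on both sides.

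Bub1 had 31.7, 32.5 and 29.6 FPKM in MLN-primed libraries, against 26.9, 26.0 and 24.7 FPKM in spleen-primed ones, without overlap, a log2 difference of 0.26 ± 0.08 (adjusted p = 0.0262). Its call was lost without MLN-primed 1, MLN-primed 2, spleen-primed 2 or spleen-primed 3 (adjusted p = 0.0688, 0.1, 0.0779 and 0.0879). The difference itself moved little, at 0.23 to 0.30 with each library left out in turn. Hmmr had 38.7, 46.9 and 46.7 FPKM in MLN-primed libraries, against 31.7, 29.9 and 39.1 FPKM in spleen-primed ones, a log2 difference of 0.39 ± 0.13 (adjusted p = 0.0483). MLN-primed 1 lay just below spleen-primed 3, so the groups overlapped. The call of Hmmr was lost when only the libraries of both primed groups were fitted (adjusted p = 0.0517) and when MLN-primed 2, MLN-primed 3, spleen-primed 1, spleen-primed 2, naive 1 or naive 3 was left out (adjusted p = 0.0523 to 0.172). Both calls were lost under median-of-ratios scaling (Bub1 adjusted p = 0.0825, Hmmr adjusted p = 0.0542) and under quantile normalization (0.111 and 0.105). Nusap1 had 66.4, 79.7 and 73.2 FPKM in MLN-primed libraries, against 91.5, 89.1 and 96.7 FPKM in spleen-primed ones. All its MLN-primed values lay below all spleen-primed ones, with a log2 difference of -0.34 ± 0.12 (adjusted p = 0.0512), just outside the threshold. It passed as lower under median-of-ratios scaling (-0.39, adjusted p = 0.0238) and under quantile normalization (-0.38, adjusted p = 0.0187).

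**Figure D3:**
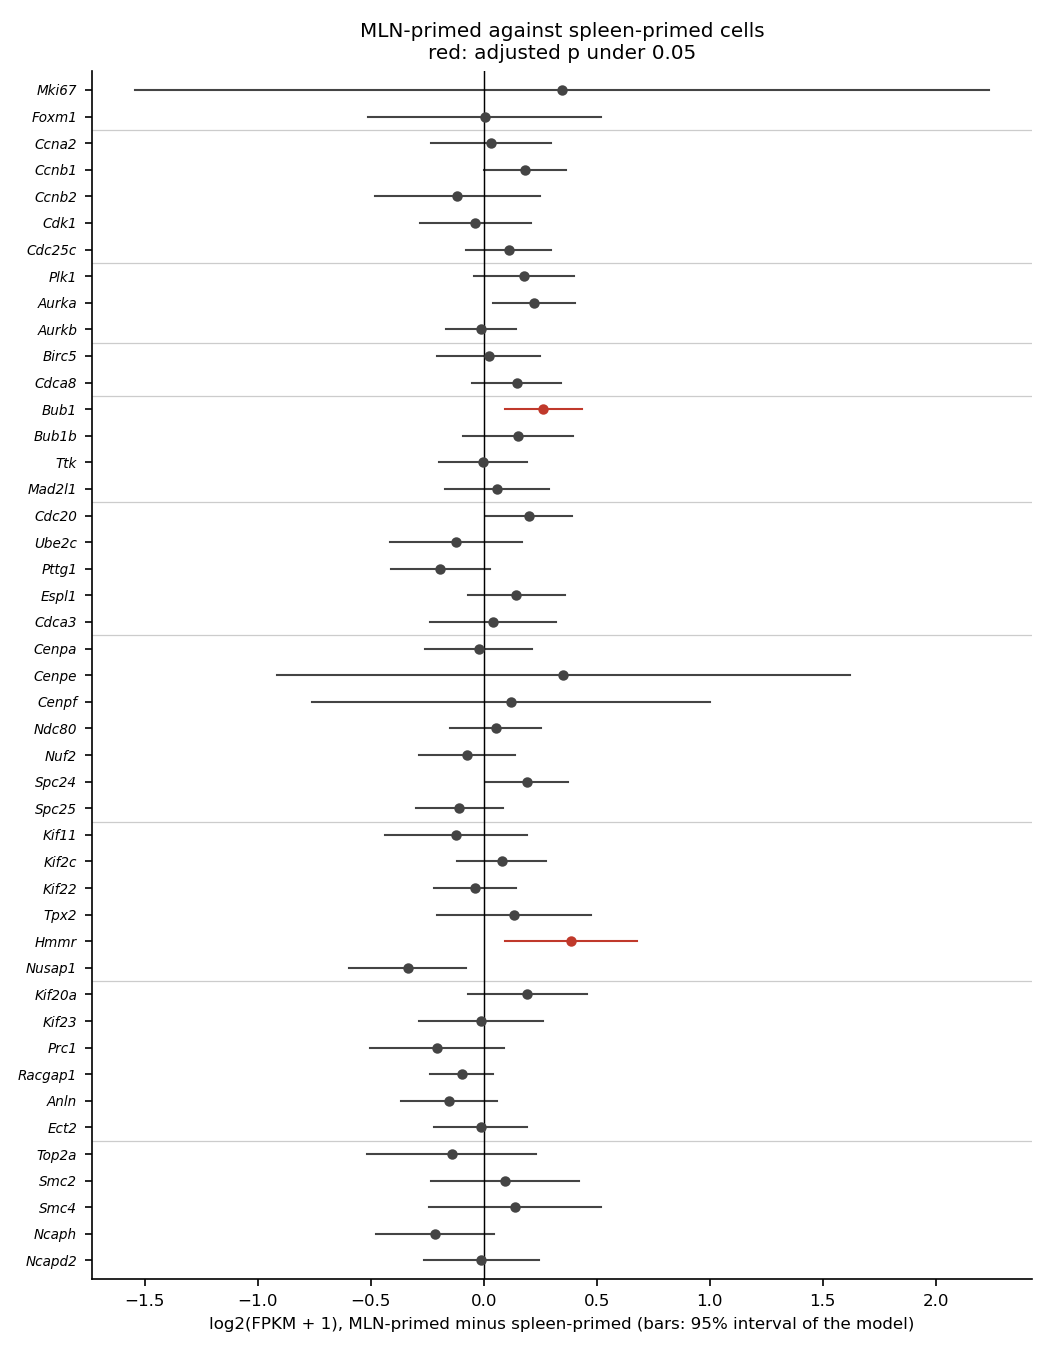
Difference in log2(FPKM + 1), MLN-primed minus spleen-primed, for the 45 genes in order of role; points are estimates and bars their 95% intervals from the model over 9 libraries. Bub1 (0.26) and Hmmr (0.39), in red, passed an adjusted p of 0.05, and the widest interval, that of Mki67, ran from -1.55 to 2.24.

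None of the genes of the cyclin and CDK1, mitotic kinase and chromosomal passenger groups passed between the primed groups. The log2 difference, MLN-primed minus spleen-primed, was 0.18 ± 0.08 (adjusted p = 0.123) for Ccnb1, -0.04 ± 0.11 (adjusted p = 0.837) for Cdk1, 0.18 ± 0.10 (adjusted p = 0.211) for Plk1 and -0.01 ± 0.07 (adjusted p = 0.911) for Aurkb, for which the 95% interval was -0.17 to 0.14. Birc5 differed by 0.02 ± 0.10 (adjusted p = 0.902), with an interval of -0.21 to 0.25. Cdc20, without overlap between the groups, differed by 0.20 ± 0.09 (adjusted p = 0.103), and Aurka, also without overlap, by 0.22 ± 0.08 (adjusted p = 0.0644). Aurka and Cdc20 passed beside Bub1 when only the libraries of both primed groups were fitted (adjusted p = 0.0265 and 0.0352, with 17.5% of all genes higher) and when naive 2 was left out (adjusted p = 0.0283 and 0.0344).

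Among kinetochore and spindle genes, differences were -0.02 ± 0.11 (adjusted p = 0.9) for Cenpa, 0.05 ± 0.09 (adjusted p = 0.708) for Ndc80, -0.12 ± 0.14 (adjusted p = 0.559) for Kif11 and 0.13 ± 0.15 (adjusted p = 0.559) for Tpx2. Further differences were -0.01 ± 0.09 (adjusted p = 0.932) for Ect2, -0.15 ± 0.09 (adjusted p = 0.259) for Anln, -0.14 ± 0.17 (adjusted p = 0.573) for Top2a and -0.19 ± 0.10 (adjusted p = 0.173) for Pttg1. The condensin partners differed by 0.09 ± 0.15 (adjusted p = 0.681) for Smc2, and by 0.14 ± 0.17 (adjusted p = 0.585) for Smc4. None of these 10 genes passed the threshold, and their differences ran in both directions.

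The genes with the split between libraries had the least precise differences: 0.35 ± 0.85 (adjusted p = 0.797) for Mki67, 0.35 ± 0.57 (adjusted p = 0.687) for Cenpe, 0.12 ± 0.39 (adjusted p = 0.855) for Cenpf and 0.0047 ± 0.23 (adjusted p = 0.99) for Foxm1. The 95% intervals were -1.55 to 2.24, -0.91 to 1.62, -0.76 to 0.9996 and -0.51 to 0.52. These values depended on which libraries were compared. Without spleen-primed 3 and MLN-primed 1, so that low libraries were left in the spleen-primed group alone, 10 members were higher in MLN-primed cells and 1, Pttg1, was lower (-0.34, adjusted p = 0.0173). Over all genes tested, 24.7% were higher and 13.5% lower in that setting. The 10 were Mki67 (2.14, adjusted p = 0.000226), Cenpe (1.57, adjusted p = 8.23e-05), Cenpf (0.96, adjusted p = 0.000258), Foxm1, Plk1, Tpx2, Hmmr, Kif20a, Smc2 and Smc4. Without all 3 low libraries, a setting chosen after seeing the data, 0 members passed in either direction, against 6.42% of all genes higher and 5.16% lower. Mki67 differed by -0.12 (adjusted p = 0.752) and Cenpe by 0.0044 (adjusted p = 0.99). In that setting spleen-primed 3 stands alone for its group and is assumed to vary like the other groups.

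The 3 members with the widest spread were also the 3 with the longest transcripts: 10061 bases for Mki67, 7910 for Cenpe and 11130 for Cenpf, while no other member exceeded 7000 bases. The difference of log2(FPKM + 1) between MLN-primed 1 and the mean of MLN-primed 2 and 3 was -3.12 for Mki67, -2.08 for Cenpe and -1.40 for Cenpf. Between the mean of spleen-primed 1 and 2 and spleen-primed 3 it was -2.26, -1.56 and -1.13. The 13 members under 2000 bases had medians of -0.01 in MLN-primed and 0.01 in spleen-primed libraries by the same measures. Across the 45 genes, Pearson's r of this difference with log2 transcript length was -0.66 in MLN-primed and -0.67 in spleen-primed libraries. This is a description across genes that share the same libraries. It includes the 3 longest members, which were the extreme points, and was not computed without them. Over the 10042 other genes with a known length r was -0.40 and -0.37, and the difference from the members was not tested. Long transcripts of other genes were also low in these libraries: the 585 other genes over 7000 bases had median differences of -0.29 and -0.26, and 10.3% and 5.98% of them were at or below -1. Of these 585 genes, 0 were as low as Mki67 in either group, 3 and 5 were as low as Cenpe, and 22 and 21 as low as Cenpf. After these 3 the largest differences were in Foxm1, of 4652 bases (-0.83 and -0.58), Smc4, of 4316 bases (-0.50 and -0.50), and Tpx2 and Smc2, of 4161 and 5366 bases (-0.43 and -0.34, -0.39 and -0.42). The 11 members of 4000 to 7000 bases ranged from -0.83 to 0.19 in MLN-primed and from -0.58 to 0.13 in spleen-primed libraries. Espl1, the next longest at 6658 bases, was at -0.19 and -0.08. Cdk1 (0.15 and 0.13) and Ect2 (0.19 and 0.10), of 4375 and 4024 bases, were above 0. The 42 remaining members varied less between replicates, with a median coefficient of variation of 7.98% in MLN-primed and 6.93% in spleen-primed libraries and a highest of 30.7% and 25.9%. The cause of the low values in these libraries was not tested.

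**Figure D4:**
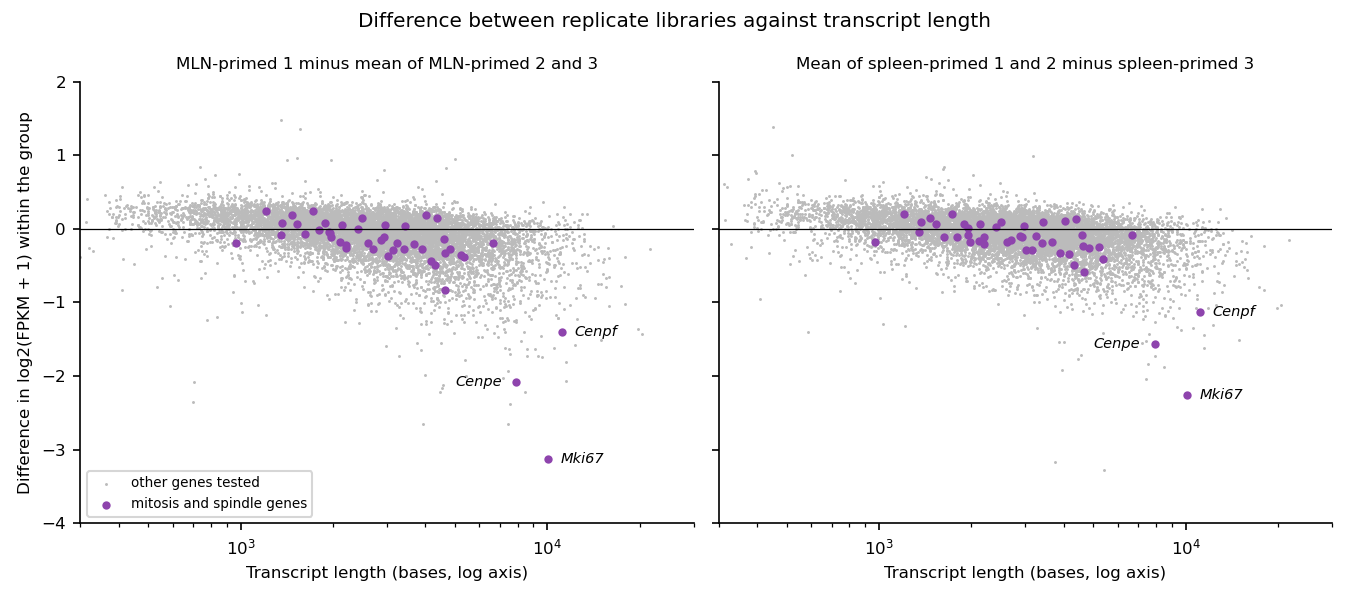
Difference in log2(FPKM + 1) between replicate libraries of a group against transcript length in bases on a log axis, for MLN-primed (left) and spleen-primed cells (right); purple points are the 45 members, grey points other genes tested, and 34 and 37 genes lie outside the axes. Mki67, Cenpe and Cenpf lie at -3.12, -2.08 and -1.40 on the left and at -2.26, -1.56 and -1.13 on the right.

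Other mitotic genes, a list of 130 drawn up by function in 5 groups, mostly rose relative to naive cells: 117 rose and 5 fell in MLN-primed, and 115 rose and 6 fell in spleen-primed cells, with median log2 changes of 1.95 and 1.96. Over all genes tested, 45.5% were higher and 33.2% lower in MLN-primed cells, and 43.1% and 32.7% in spleen-primed ones. The wider list of centromere and kinetochore genes had 26 and 25 of 28 higher, led by Cenpm (4.39 and 4.38) and Ska3 (4.38 and 4.46). In the wider checkpoint and APC/C list 23 of 24 were higher in either group, among them Trip13 (4.59 and 4.27), a regulator of MAD2, but the median change was 1.17 and 0.87. Wider spindle, kinesin and centrosome genes were higher in 31 of 34 in either group, led by Ckap2l (4.91 and 4.82). Entry and exit regulators were higher in 24 of 26 in either group, with Nek2 at 5.43 and 5.06 and Cdkn3 at 5.22 and 5.46.

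Wider condensin and cohesin genes mostly rose: 13 of 18 were higher and 2 lower in MLN-primed, and 12 higher and 3 lower in spleen-primed cells. The shares that were lower, 11.1% and 16.7%, were below the 33.2% and 32.7% of all genes tested. Ncapg, a condensin I subunit, changed by 5.10 and 5.09, and Cdca5, which encodes the cohesion protector sororin, by 4.92 and 4.98. The members that fell, named after their values were seen, were Nipbl and Mau2, which together load cohesin onto DNA, and in spleen-primed cells Wapal, which releases it (-0.27, adjusted p = 0.0402). Nipbl had 4.49, 10.6 and 9.91 FPKM in MLN-primed libraries, 5.56, 5.79 and 10.5 FPKM in spleen-primed and 16.9, 16.4 and 22.2 FPKM in naive ones. Its log2 change was -1.13 (adjusted p = 0.0058) in MLN-primed and -1.28 (adjusted p = 0.0030) in spleen-primed cells. All primed libraries lay below all naive ones, but the transcript is 9423 bases long and the 3 low libraries were the same as for Mki67. Mau2, at 4128 bases, had 7.34 to 9.38, 7.76 to 9.52 and 11.4 to 13.4 FPKM in MLN-primed, spleen-primed and naive libraries. Its log2 change was -0.51 ± 0.11 (adjusted p = 0.0017) in MLN-primed and -0.48 ± 0.11 (adjusted p = 0.0024) in spleen-primed cells. The other genes that fell, also named after their values were seen, were Kif3b (-0.59 in MLN-primed and -0.36 in spleen-primed cells), Ensa (-0.44 and -0.21), Lin52 in MLN-primed cells (-0.30) and Numa1 in spleen-primed cells (-1.55, adjusted p = 0.0307). Numa1, whose protein organises spindle poles, is 7180 bases long. It had 5.51, 24.9 and 26.2 FPKM in MLN-primed libraries, 6.88, 11.6 and 28.3 FPKM in spleen-primed and 34.4, 41.4 and 48.1 FPKM in naive ones. The same 3 primed libraries were low. In MLN-primed cells the log2 change of Numa1 was -1.335 (adjusted p = 0.0539), just outside the threshold, with every MLN-primed library below every naive one.

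Between the primed groups, 18 of these 130 genes were higher and 6 lower in MLN-primed cells (13.8% and 4.62%), with a median difference of 0.09. Both shares were below those of all genes tested, 17.3% higher and 13.1% lower. The largest differences among those that passed were in entry and exit regulators: Cdc25a, a phosphatase that acts at the start of S phase as well as at mitosis, at 0.60, Mybl2, the MYB factor that works with MuvB, at 0.57, and Bora, an activator of Aurora A and PLK1, at 0.47. Mybl2 had 29.2, 43.9 and 46.75 FPKM in MLN-primed libraries 1 to 3 and 22.5, 24.1 and 32.7 FPKM in spleen-primed ones. Its groups overlapped (0.57 ± 0.18, adjusted p = 0.03875), and MLN-primed 1, spleen-primed 1 and spleen-primed 2 were its lowest primed libraries. Depdc1b (-0.49) and the spindle gene Fam83d (-0.42) were lower. In the kinetochore list Cenpu (0.37), Cenpk (0.34), Cenph (0.34) and Zwint (0.24) were higher, and in the spindle list Haus5 (0.39), Haus1 (0.35) and Haus7 (0.26), subunits of the augmin complex that branches spindle microtubules. In the checkpoint and APC/C list 5 of 24 were higher (20.8%, above the share of all genes) and 2 lower (8.33%). Its largest differences ran both ways: Zwilch (0.43), Cdc16 (0.39) and Cdc27 (0.34) were higher and Anapc11 (-0.36) was lower. For comparison, 21 of 45 DNA replication genes were higher in MLN-primed cells than in spleen-primed ones and 0 lower, with a median difference of 0.24 and a lowest of 0.0060. This list was led by Orc1 (0.66), Mcm10 (0.63) and Cdc6 (0.49). The difference between the replication list and the 45 mitosis and spindle genes was not tested.

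**Figure D5:**
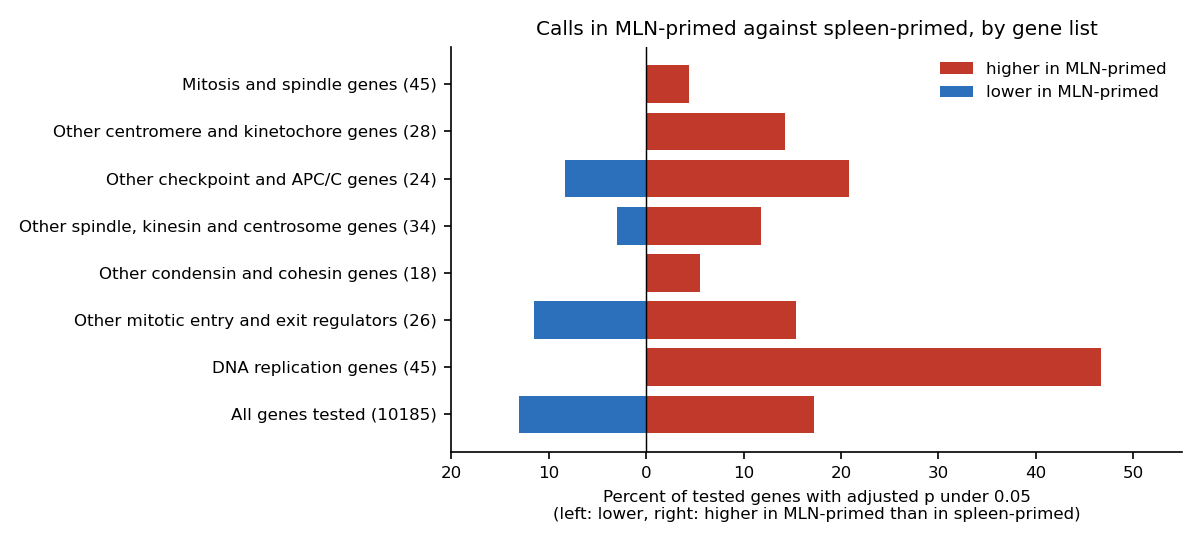
Share of tested genes called higher (right) or lower (left) in MLN-primed cells than in spleen-primed ones at an adjusted p under 0.05, for the 45 mitosis and spindle genes, 5 lists of other mitotic genes, DNA replication genes and all genes tested, with the number tested in brackets. Of the 45 mitosis and spindle genes 4.44% were higher and 0 lower, against 17.3% and 13.1% of all genes; of the replication genes 46.7% were higher.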

How the data were processed

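Libraries were prepared with the TruSeq Stranded mRNA kit from RNA purified with the RNeasy Plus Micro kit, per the labels' protocols. The deposited gene table holds FPKM, which the authors made with TopHat and Cufflinks on mm10, per the submitters' processing notes; neither their versions nor strand handling is given in the sources used here. Since FPKM are scaled by length and by library and keep no read numbers, no counting error is given. Of 24067 rows, 131 without a symbol (0.0480% of the FPKM) were left out. A transcript table identical to the gene table was not used. Genes reaching 1 FPKM in 3 or more libraries were fitted as log2(FPKM + 1) in 1 model over 9 libraries with limma 3.58.1 (limma-trend, R 4.3.3), tested two-sided, with p-values adjusted by Benjamini-Hochberg over all 10185 genes. On simulated data the fit recovered 55.2% of differences of 0.5 log2 units between the primed groups and 90.6% of those of 1. Of its calls there, 5.09% were false. Differences below 0.5 were not simulated. Groups came from the treatment and title labels. Transcript lengths came from GENCODE release 21 (GRCm38), for all 45 members and 10087 genes tested, and promoters from RefSeq (GRCm38.p6), which matched 37 members; figures used matplotlib 3.10.9. All members may be named; full statistics are given for 20 genes chosen by role, the 5 largest and 5 smallest changes that passed and members that passed between the primed groups, and up to 4 genes of each wider list by largest change. Members, lists, markers and alternatives were chosen with earlier results of these data known. Alternatives were a pseudocount of 0.1, no filter or a filter of 5 FPKM, median-of-ratios scaling, quantile normalization, only the libraries compared, the replicate number as a block, removal of the length trend, each library left out, and 2 sets of libraries left out together. Deviations of same-numbered libraries from their group means correlated at 0.64, -0.24 and 0.49 between MLN-primed and spleen-primed cells, 0.14, -0.24 and 0.12 between MLN-primed and naive cells, and 0.16, 0.12 and 0.24 between spleen-primed and naive cells. All 3 correlations exceeded 0.1 only in the last comparison. The main fit paired no libraries in any comparison, and the replicate number entered only as the block named among the alternatives. The labels give no pairing.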

Additional observations from a re-analysis of the deposited data

How the results depend on the processing

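Against naive cells the count of higher members was 44 of 45 under every alternative run except quantile normalization, where 43 were higher in MLN-primed cells; with each library left out it stayed at 44 to 44. The count of lower members, 0, was 1 (Smc4) in MLN-primed cells under quantile normalization, and in spleen-primed cells 1 under median-of-ratios scaling, 1 under quantile normalization and 1 without spleen-primed 3 and MLN-primed 1, with a range of 0 to 1 when each library was left out. Pttg1 changed sign under quantile normalization in MLN-primed cells (-0.0037). Smc4, which was not called, was at 0.063 in MLN-primed against naive cells without spleen-primed 3 and MLN-primed 1, at 0.063 without spleen-primed 1, spleen-primed 2 and MLN-primed 1, at 0.064 with the length trend removed and between -0.20 and 0.063 with each library left out, and at 0.088 in spleen-primed against naive cells without spleen-primed 1, spleen-primed 2 and MLN-primed 1. Scaling moved the median of all genes against naive cells: 0.15 in MLN-primed and 0.10 in spleen-primed cells as deposited, -0.01 and -0.01 with median-of-ratios scaling and -0.04 and -0.07 with quantile normalization; calls over all genes in MLN-primed against naive cells were 4635 higher and 3385 lower as deposited, 4054 and 3990 with median-of-ratios scaling and 3843 and 4141 with quantile normalization. Calls in spleen-primed against naive cells were 4387 and 3331, 3907 and 3852, and 3545 and 4070. In MLN-primed against spleen-primed cells the calls were 1760 and 1333 as deposited, 1443 and 1575 with median-of-ratios scaling and 1553 and 1461 with quantile normalization. Between MLN-primed and spleen-primed cells the count of 2 higher members was 0 with a pseudocount of 0.1, 1 (Bub1) without a filter, 0 with median-of-ratios scaling, 0 with quantile normalization, 3 (Bub1, Aurka and Cdc20, with Hmmr lost) with only the libraries of both groups, 10 without spleen-primed 3 and MLN-primed 1, and 0 without spleen-primed 1, spleen-primed 2 and MLN-primed 1, an alternative added after seeing the data; with each library left out it was 0 to 4. In the last 2 settings the calls over all genes were 2517 higher and 1375 lower, and 654 and 526. The count of 0 lower members was 1 (Nusap1) with a filter of 5 FPKM, with median-of-ratios scaling, with quantile normalization, with only the libraries of both groups, with the replicate block and with the length trend removed, and 1 (Pttg1) without spleen-primed 3 and MLN-primed 1; with each library left out it was 0 to 1. With the replicate number as a block 2 members were higher and 1 lower between the primed groups, and 44 were higher and 0 lower against naive cells in both comparisons. The block changed no call of a member other than that of Nusap1. Differences near 0 that were not called changed sign: Foxm1 to -0.043 and Birc5 to -0.028 with median-of-ratios scaling, and Foxm1 to -0.038 with quantile normalization. Without spleen-primed 3 and MLN-primed 1, Aurkb was at 0.0038, Birc5 at -0.019, Kif11 at 0.054 and Top2a at 0.062. Without spleen-primed 1, spleen-primed 2 and MLN-primed 1, Mki67 was at -0.12, Foxm1 at -0.11, Cdk1 at 0.0032, Aurkb at 0.013, Cenpa at 0.012, Smc2 at -0.056 and Smc4 at -0.025. With each library left out, the difference was -0.026 to 0.0068 for Aurkb, -0.086 to 0.013 for Cdk1, -0.086 to 0.031 for Cenpa, -0.050 to 1.04 for Cenpe, -0.076 to 0.075 for Ect2, -0.14 to 0.28 for Foxm1, -0.21 to 1.39 for Mki67, -0.011 to 0.14 for Ndc80 and -0.040 to 0.23 for Smc2. The causes of these changes were not tested. With 3 libraries per group and no read numbers, differences between the primed groups smaller than the intervals given could not be resolved.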
